A study of Mus musculus with 6 samples.

Results

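Class IIa histone deacetylases are encoded in the mouse by Hdac4, Hdac5, Hdac7 and Hdac9, and their open chromatin was compared between Utx-knockout and wild-type bone marrow progenitors. These 4 genes, of 21887 protein-coding genes, were chosen by family, and the family was picked on the measured number of regions that opened at Hdac9 in this same comparison. Differences between the genotypes at the 4 genes are therefore descriptions and carry no test. ATAC-seq, in which a transposase cuts accessible DNA, gave 1 peak list for each of 6 samples. Of these, 3 came from mice with the genotype UTX_KO, a knockout of the histone demethylase gene Utx, and 3 from mice with the genotype UTX_WT, all of strain C57BL/6. Both groups were lineage-depleted bone marrow, which is enriched for stem and progenitor cells and still mixed. The sources used here do not give age, sex, which alleles or cells carried the deletion and how it was made, or whether samples came from separate or pooled animals, so any p-value measures only the spread between these samples.

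Knockout lists held 44576 to 50249 peaks and wild-type lists 57405 to 57917. Read depth is unknown, so a missing peak means that none passed the caller's threshold, not that the site was closed. Overlapping peaks from the 6 samples (1 bp sufficed) were joined, which gave 75961 consensus regions, and 72 of them lay in or within 20 kb of a class IIa gene. A region was called gained when all 3 knockout samples and no wild-type sample had a peak there, and lost in the opposite case. Over all regions 4.69% were gained and 10.6% were lost, that is 3566 and 8042 regions. With equal numbers of peaks in every sample (the widest 44576 of each) these became 4740 gained and 4677 lost. No excess of lost regions thus remained at equal list length, but this setting drops the narrowest peaks, most of them from wild-type lists. Depth itself was not matched. In bulk tissue, fewer cells of a type and less open chromatin per cell cannot be told apart. All 10 progenitor marker genes checked, among them Kit, Cd34 and Spi1, had peaks in every sample. So did all 13 B lymphoid and all 6 megakaryocyte genes checked. The same held for 10 of 11 erythroid, 7 of 8 T and NK, and 7 of 8 granulocyte and monocyte genes. Peaks in every sample therefore do not set progenitor markers apart.

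Class IIa enzymes have little deacetylase activity of their own in vertebrates and act as signal-controlled corepressors. Their amino-terminal part binds MEF2 transcription factors, and they draw in the NCoR corepressor complex with HDAC3. Kinases of the CaMK, PKD and SIK families phosphorylate them, 14-3-3 proteins then bind, and the complex leaves the nucleus. Hdac7 is best known in blood for its roles in developing T and B cells, where it represses genes of other lineages. Hdac9 also makes a short form, MITR, that lacks the deacetylase domain.

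Of 8 annotated transcription starts of the 4 genes, 2 differed between the genotypes, an internal start of Hdac9 with a peak in every knockout sample and the first start of Hdac7 with a peak in every wild-type sample. Over all genes, 0.844% of the annotated starts that lie in a region lay in a gained and 1.2% in a lost one. The sequences upstream of these starts are shown with those of the other Hdac9 start and of a Hdac7 start that was open in both genotypes. Each is the 250 bases before the start, 5′ to 3′ on the minus strand, from RefSeq on GRCm38.p6, the assembly of mm10. Capitals mark matches to the motifs named after them.
Hdac9 start 2, internal (chr12:34528890-34529139, gained region): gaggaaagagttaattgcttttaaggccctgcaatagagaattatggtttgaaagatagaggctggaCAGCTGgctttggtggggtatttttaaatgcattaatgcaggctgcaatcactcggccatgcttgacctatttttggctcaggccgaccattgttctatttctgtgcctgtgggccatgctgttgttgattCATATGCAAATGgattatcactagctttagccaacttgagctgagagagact
Hdac9 start 1 (chr12:34917096-34917345, no peak in any sample): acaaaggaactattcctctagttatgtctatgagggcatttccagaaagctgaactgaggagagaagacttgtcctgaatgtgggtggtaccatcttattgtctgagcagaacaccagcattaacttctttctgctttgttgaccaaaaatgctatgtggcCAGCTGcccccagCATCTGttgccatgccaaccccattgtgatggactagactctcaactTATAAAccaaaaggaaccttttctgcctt
Hdac7 start 1 (chr15:97844503-97844752, lost region): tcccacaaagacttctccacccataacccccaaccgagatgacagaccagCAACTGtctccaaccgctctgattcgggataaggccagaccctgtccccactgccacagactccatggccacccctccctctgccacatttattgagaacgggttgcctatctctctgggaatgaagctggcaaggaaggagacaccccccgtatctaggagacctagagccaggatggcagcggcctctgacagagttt
Hdac7 start 3 (chr15:97831496-97831745, region in all 6 samples): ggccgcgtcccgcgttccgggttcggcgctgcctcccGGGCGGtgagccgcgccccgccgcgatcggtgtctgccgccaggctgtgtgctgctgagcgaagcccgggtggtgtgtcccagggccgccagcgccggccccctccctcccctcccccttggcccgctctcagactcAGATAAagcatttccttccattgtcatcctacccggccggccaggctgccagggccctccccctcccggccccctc

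Motifs were searched on both strands, and overlapping matches were counted. They were the CCAAT box, the GC box with the letters GGGCGG, the TATA box with TATAAA, the ETS core with CCGGAAG, the GATA motif with AGATAA, the E-box with CANNTG, the CRE core with TGACGTCA and, added after the sequences were read, the MEF2 consensus. The internal Hdac9 start had 3 E-box matches and no other of these motifs, the first Hdac9 start had 2 E-boxes and a TATA box 29 bases upstream, and the first Hdac7 start had 1 E-box. The third Hdac7 start had 1 GC box and 1 GATA match. An E-box occurs in 62.8% of 21263 upstream sequences of this length, the TATA box in 11.6%, the GC box in 42.6% and the GATA motif in 8.81%. E-box matches are thus common at starts. Hdac4 had 4 GC boxes and 2 CCAAT boxes. Hdac5 had 1 GC box, 2 CCAAT boxes, 1 E-box and a MEF2 match 20 bases upstream of its start, found in 0.466% of upstream sequences (the CCAAT box is in 35.4%). The ETS core (8.98%) and the CRE core (1.92%) matched at none of the 8 class IIa starts. A match is a string of letters, not a shown binding site.

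Hdac9, the longest of the 4 genes at 870 kb (gene ID 79221, chr12:34047580-34917095), carried most of the gained regions. Knockout samples 1, 2 and 3 had 18, 18 and 19 peaks in or within 20 kb of it, and wild-type samples 1, 2 and 3 had 14, 11 and 11. Every knockout sample was above every wild-type sample, although knockout lists were shorter throughout. The means were 18.3 ± 0.577 in knockout and 12 ± 1.73 in wild type (SD, n = 3 each), a difference of 6.33 peaks, or 2.02 and 1.32 peaks per 100 kb. Of genes with any region, 4.24% had more peaks in every knockout sample, and Hdac9 was picked for this pattern. Of its 29 regions, all inside the gene span, 9 were gained, 3 were lost and 4 were in all 6 samples. Counting genes, 4 of 21887 had at least 9 gained regions and 2 had more, while 16985 had any region. Hdac9 was picked on this count, which is not scaled to gene length. Its rank is therefore a description and no support.

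The widest gained region lay over the internal start, 388 kb into the gene, at chr12:34528662-34529467. Its peaks covered 634, 718 and 779 bases in the knockout samples, and no wild-type sample had a peak. A companion region (chr12:34527356-34528044) began 0.845 kb downstream of that start, with peaks of 591, 606 and 548 bases in knockout. The next gained region downstream, 29.2 kb from the internal start at chr12:34499180-34499707, had 438, 521 and 484 bases. The region over the start and its companion lay 617 bases apart, and the third was farther off. All 3 lay at or downstream of a start that carries no peak in wild type. The first annotated Hdac9 start, where the gene span begins, had no peak in any sample.

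**Figure D1:**
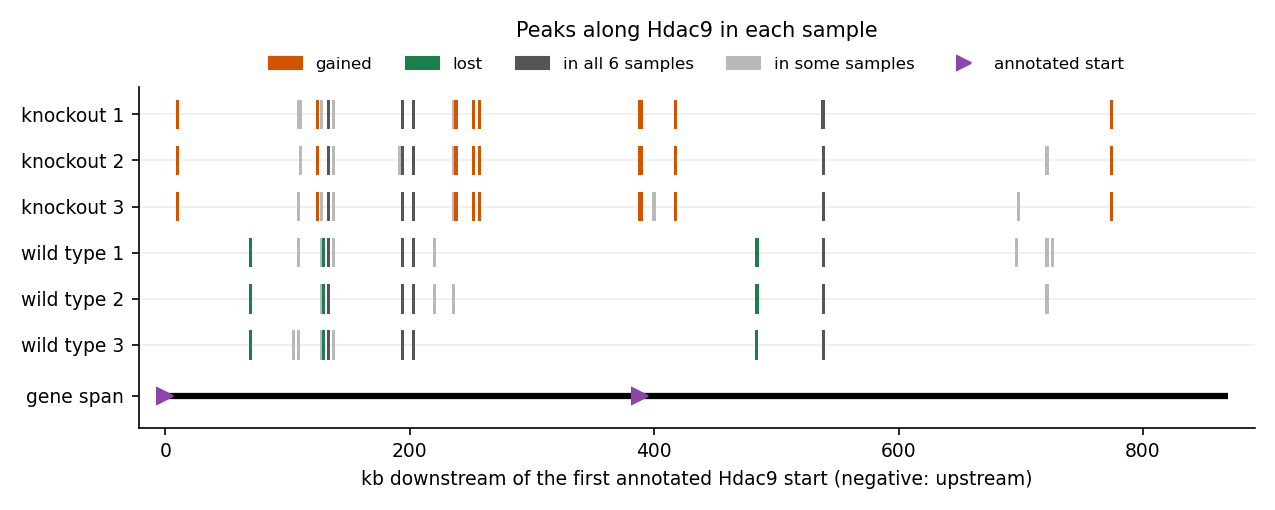
Peaks along Hdac9 in each sample, with knockout samples above wild-type samples, against distance from the first annotated start in kb; each tick is a peak (narrow peaks are drawn at a minimum width, so close neighbours touch), coloured by the class of its region, and arrowheads mark annotated starts. The 9 gained regions recur in all 3 knockout rows, including those at the internal start 388 kb along, and the 3 lost regions in all 3 wild-type rows.

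The other 6 gained Hdac9 regions were spread over the gene. Of these, 3 formed a group 238 to 257 kb downstream of the first start (chr12:34678989-34679469, chr12:34664839-34665190 and chr12:34659991-34660377). Their knockout peaks ranged from 213 to 480 bases. Another lay 9.42 kb downstream of the first start (chr12:34907173-34907676; 376, 496 and 496 bases in knockout), and another 124 kb downstream (chr12:34792150-34792705; 365, 490 and 521 bases). The last, at chr12:34142854-34143162, lay 386 kb downstream of the internal start with 297, 272 and 256 bases. From first to last the gained regions spanned 765 kb.

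Hdac9 did not only gain peaks. Its 3 lost regions were at chr12:34847431-34847956 (439, 271 and 526 bases in wild-type samples 1, 2 and 3), chr12:34787444-34787689 (246, 213 and 204 bases) and chr12:34432632-34433477 (465, 570 and 508 bases). Just outside the gained call, chr12:34680614-34681478 had peaks of 685, 847 and 841 bases in knockout and of 348 bases in wild-type sample 2 alone, and chr12:34806596-34806930 had peaks in knockout samples 1 and 2 and in no other. Among the 4 regions in all 6 samples, 2 had wider peaks in every knockout sample. At chr12:34722878-34723578 they covered 585, 642 and 701 bases in knockout and 546, 496 and 469 bases in wild type. At chr12:34783490-34784088 they covered 561, 487 and 544 bases in knockout and 413, 428 and 405 bases in wild type. Of all regions in all 6 samples, 12.8% had more bases under peaks in every knockout sample and 26.7% had fewer. The difference in peak number at Hdac9 was 11.3 with equal numbers of peaks in every sample and 4.67 with the widest 50% of peaks, when 4 gained regions were called. Under each of these settings 1 lost Hdac9 region was called.

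Hdac7 (gene ID 56233, chr15:97792661-97844502, 51.8 kb) differed in the other direction. Knockout samples had 10, 11 and 9 peaks in or within 20 kb of it and wild-type samples 17, 16 and 18, so every knockout sample was below every wild-type sample. The means were 10 ± 1 in knockout and 17 ± 1 in wild type (SD, n = 3 each), a difference of -7 peaks, or 10.9 and 18.5 peaks per 100 kb. Fewer peaks in every knockout sample were common, at 27.6% of genes with a region. Of 19 regions, 6 were lost, 0 were gained and 8 were in all 6 samples. The gained count was 1 when peaks had to cover 50% of the region or with the widest 50% of peaks. Counting genes, 89 of 21887 had at least 6 lost regions.

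The widest lost Hdac7 region covered its first annotated start, at chr15:97843854-97845185. Wild-type samples 1, 2 and 3 had 768, 832 and 1332 bases under the peak, and no knockout sample had a peak. Other lost regions flanked this start, 3.95 kb downstream (chr15:97840178-97840549; 295, 232 and 361 bases in wild type), 2.8 kb upstream (chr15:97847306-97848109; 304, 318 and 804 bases) and 6.56 kb upstream (chr15:97851063-97851323; 199, 199 and 223 bases). These 4 lost regions, counting that over the start, also lie within 20 kb of the vitamin D receptor gene Vdr. Those over the start and 3.95 kb downstream lie at least partly in the Hdac7 span, and those 2.8 kb and 6.56 kb upstream lie between the genes. Which gene, if any, they regulate cannot be told from position. The remaining 2 were chr15:97828877-97829258, inside the gene, and chr15:97789929-97790498, inside the overlapping haem transporter gene Slc48a1 beyond the 3′ end.

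**Figure D2:**
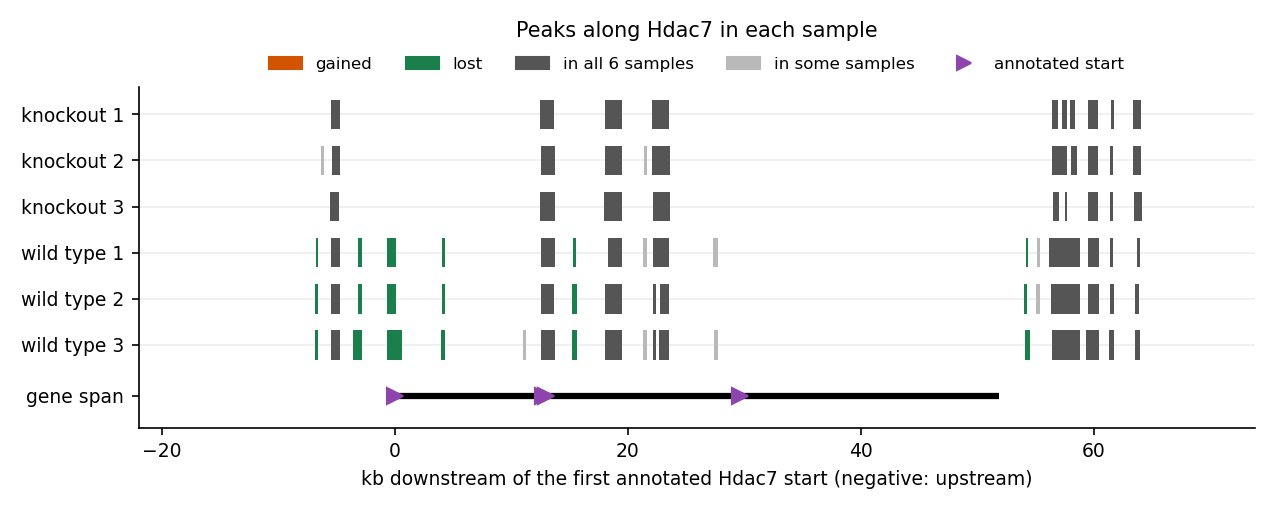
Peaks along Hdac7 in each sample, with knockout samples above wild-type samples, against distance from the first annotated start in kb; colours and arrowheads as in the Hdac9 map. The 6 lost regions recur in all 3 wild-type rows, with 4 of them at or around the first start, while the block over the second and the third starts is present in all 6 rows.

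The second and the third Hdac7 starts had a peak in every sample of both genotypes. These starts, 12.7 and 13.0 kb downstream of the first, share the region chr15:97830752-97832022. It held peaks of 1130, 1225 and 1266 bases in knockout and 1205, 1156 and 1213 bases in wild type, with overlapping groups. The fourth start had no region. Of 8 Hdac7 regions in all 6 samples, 3 had more and 1 had fewer bases under peaks in every knockout sample. At chr15:97780330-97781113, also near Slc48a1 and Rapgef3, peaks covered 663, 633 and 728 bases in knockout and 262, 340 and 390 bases in wild type, a ratio of 2.04. At chr15:97785681-97788286, inside Slc48a1, they covered 1399, 1905 and 724 bases in knockout and 2589, 2510 and 2403 bases in wild type, a ratio of 0.537. The signal there was split into separate peaks in every knockout sample and undivided in every wild-type sample. At chr15:97820879-97822444, with more bases in knockout, it was split in wild-type samples 2 and 3. Split peaks count separately in the peak numbers. The number of lost Hdac7 regions was 3 with equal numbers of peaks in every sample, 3 in the gene span alone and 1 with the widest 50% of peaks. The differences in peak number were then -4, -5 and -0.333.

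The mean peak numbers at Hdac4 and Hdac5 were closer between the genotypes. Hdac4 (gene ID 208727, chr1:91928779-92195702, 267 kb) had 10, 10 and 9 peaks in knockout and 9, 9 and 10 in wild type, means of 9.67 ± 0.577 and 9.33 ± 0.577 (SD, n = 3 each), with overlapping groups. Of its 12 regions 7 were in all 6 samples, 1 was gained and 0 were lost. The gained count was 0 when peaks had to cover 50% of the region or with the widest 50% of peaks, and 2 with equal numbers of peaks in every sample. The gained region, inside the gene 93.6 kb downstream of the start (chr1:92086132-92086717), had peaks of 263, 483 and 465 bases in knockout. Hdac4's annotated start lay in a region that was open in all 6 samples (chr1:92179228-92181303; 1802, 1417 and 1289 bases in knockout and 1656, 1905 and 1986 in wild type). The gene span begins upstream of this start, and no start at that end of the span was among those used. The small Hdac4 difference of 0.333 peaks turned to -1.67 with the widest 50% of peaks.

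Hdac5 (gene ID 15184, chr11:102195747-102230172, 34.4 kb) had 7, 10 and 7 peaks in knockout and 10, 9 and 9 in wild type, again overlapping, with means of 8 ± 1.73 and 9.33 ± 0.577 (SD, n = 3 each). Of its 12 regions 6 were in all 6 samples, 1 was gained inside the gene (chr11:102214728-102215303; 323, 568 and 549 bases in knockout) and 1 was lost inside it (chr11:102208924-102209188; 265, 214 and 199 bases in wild type). Knockout sample 2 held 2 peaks near Hdac5 that the other knockout samples lacked and wild-type samples had, and without it 3 regions were lost. With the widest 50% of peaks 0 regions were gained and 2 were lost. With equal numbers of peaks in every sample 1 was gained and 0 were lost. The start of Hdac5 was open in every sample (chr11:102229787-102230646; 687, 762 and 685 bases in knockout and 701, 634 and 860 in wild type). Of the 6 regions in all 6 samples, 4 had narrower peaks in every knockout sample, all of them outside the gene and 3 of them inside a neighbour (Lsm12, G6pc3 or Hrob). The difference in peak number at Hdac5 was -1.33, 0 with equal numbers of peaks in every sample, and of the opposite sign as a share of each sample's peaks.

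**Figure D3:**
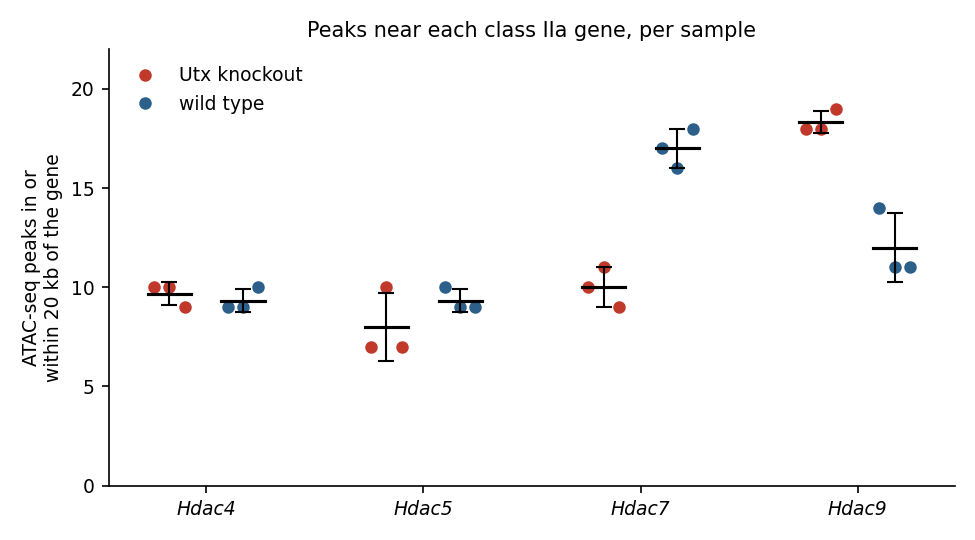
Number of peaks in or within 20 kb of each gene; points are samples, knockout left of wild type, with black bars for the mean and SD of 3 samples. Knockout samples lie above wild type at Hdac9 (18 to 19 against 11 to 14), below it at Hdac7 (9 to 11 against 16 to 18) and overlap with it at Hdac4 and Hdac5.

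Across the family the shares of gained and lost regions differed from gene to gene. Gained regions made up 31% of the regions at Hdac9, 8.33% at Hdac4, 8.33% at Hdac5 and 0% at Hdac7. Lost regions made up 31.6% at Hdac7, 10.3% at Hdac9, 8.33% at Hdac5 and 0% at Hdac4. The lost share at Hdac9 was near that of all regions (10.6%), as was that at Hdac5. Together the 72 regions held 11 gained (15.3%) and 10 lost (13.9%), and 9 of the 11 gained lay in Hdac9. With equal numbers of peaks in every sample, 13 were gained and 4 were lost. Bases under peaks near Hdac9 came to 7245, 8127 and 8013 in knockout and 4812, 3695 and 3619 in wild type. Near Hdac7 they came to 7901, 9251 and 7604 in knockout and 11882, 11269 and 13336 in wild type. They were also lower in every knockout sample near Hdac4 (5060, 5230 and 4490 in knockout and 5491, 5325 and 5494 in wild type) and near Hdac5 (3822, 4681 and 3744 in knockout and 5740, 4706 and 5510 in wild type), where the peak numbers overlapped. Of all genes with a region, 9.9% had more bases under peaks in every knockout sample and 49.4% had fewer. Region density also differed, with 20.7 regions per 100 kb of searched sequence at Hdac7, 16.1 at Hdac5, 3.91 at Hdac4 and 3.19 at Hdac9.

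**Figure D4:**
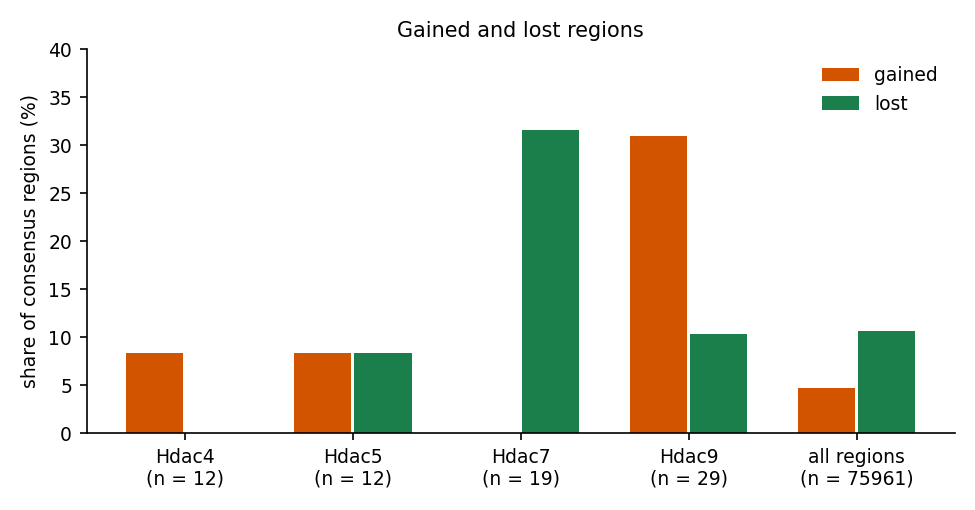
Share of consensus regions that were gained (orange) or lost (green) in knockout at each gene and over all 75961 regions, in percent; n is the number of regions. Hdac9 has the highest gained share of the 4 genes (31%) and Hdac7 the highest lost share (31.6%).

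The starts that differed between genotypes held fewer CpG than those open in all 6 samples. In the 250 bases upstream, the internal Hdac9 start had 2 CpG and 43.6% G + C, and the first Hdac7 start had 6 CpG and 56.4%. The starts with a peak in all 6 samples had 23 CpG at Hdac4, 12 at Hdac5, and 21 and 25 at the second and the third Hdac7 starts. The starts without a region had 0 (the first Hdac9 start) and 5 (the fourth Hdac7 start). Over 21263 annotated starts the median was 17 CpG where the region was in all 6 samples, 14 where it was gained, 4 where it was lost and 3 where there was no region, so the internal Hdac9 start lay below the median of gained starts. With 8 starts of 4 chosen genes these values are a description.

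**Figure D5:**
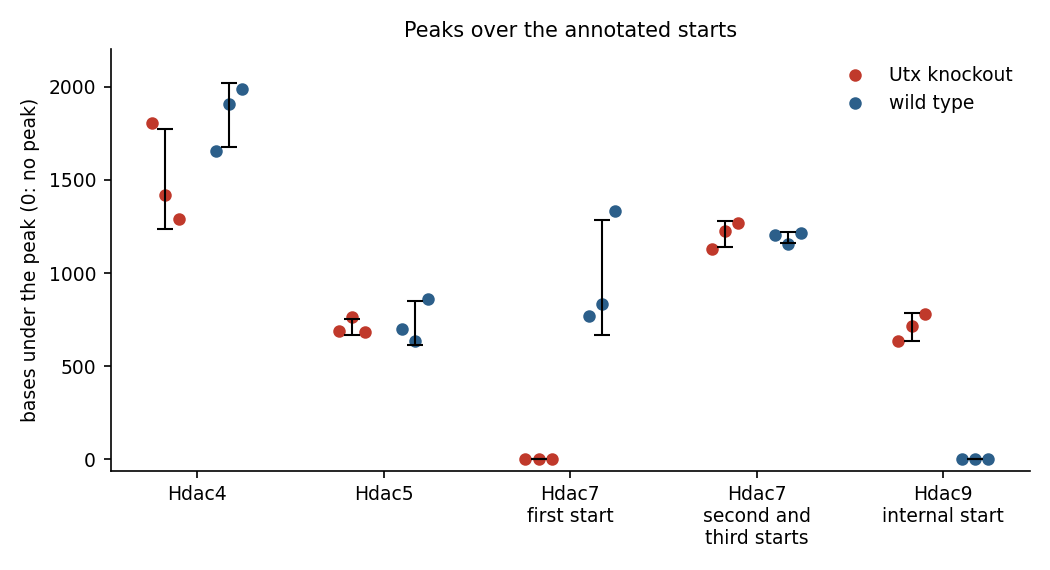
Bases under the peak at the annotated starts that lie in a region, per sample (points), with the SD of 3 samples around the mean; knockout left of wild type, and 0 means no peak. The first Hdac7 start is at 0 in every knockout sample and the internal Hdac9 start at 0 in every wild-type sample, while the values overlap at the other starts.

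Genes whose 6 peak numbers lay nearest to those of a member were listed by Euclidean distance over the 6 samples. For Hdac9 these were Tmem135 (4.36 peaks away), the ETS factor gene Ets1 (5) and Cyth1 (5.20), which had 2, 2 and 5 gained regions. For Hdac7 they were Ern1 (1.73), Lrp1 (2.24) and Gcnt2 (2.45), with 1, 6 and 4 lost regions. For Hdac4 they were Dtx4 (1), Carns1 (1.41) and Foxj2 (1.41), and for Hdac5 Uhrf1 (1), Crip1 (1.41) and Elane (1.41). The nearest genes to Hdac9 were farther from it than those of the other members were from theirs. Hdac9 was picked on this same contrast, so its distance is a description and no separate sign.

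The other histone deacetylase genes differed in both directions. Of 14 genes, 2 had more peaks in every knockout sample, 3 had fewer and 9 overlapped, beside 4.24% with more and 27.6% with fewer among all genes with a region. The class IV gene Hdac11 had 6, 7 and 8 peaks in knockout and 4, 4 and 5 in wild type, with 2 gained and 1 lost of 10 regions, and its difference of 2.67 peaks turned to -1.33 when only the gene span was searched. The sirtuin gene Sirt5, for a mitochondrial desuccinylase, had 3 peaks in each knockout and 2 in each wild-type sample, a difference that was 0 in the gene span alone and 0 with the widest 50% of peaks. The class I genes Hdac1 and Hdac3 had 6.33 ± 0.577 and 7.33 ± 1.15 peaks in knockout and 8.67 ± 1.15 and 9.33 ± 0.577 in wild type (SD, n = 3 each), with 0 lost regions at either. Hdac6, which encodes a tubulin deacetylase of class IIb, had 1 peak in each knockout sample and 3, 4 and 3 in wild type, with 2 of 4 regions lost. In the gene span alone the difference was 0 at Hdac6 and Hdac3 and -0.333 at Hdac1, so it lay mostly in the flanks. Summed over the list, knockout samples had 67.7 ± 1.53 peaks and wild-type samples 70.3 ± 1.15 (SD, n = 3 each), a difference of -2.67. The two-sided exact permutation p was 0.2 (adjusted over 2 lists 0.2), and since 3 samples against 3 allow no p below 0.1, this test could not pass at 0.05. It was 3 with equal numbers of peaks in every sample and also of the opposite sign as a share of peaks.

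Among 30 genes for partners and regulators of class IIa proteins, 3 had more peaks in every knockout sample, 9 had fewer and 18 overlapped, beside 4.24% and 27.6% of all genes with a region, so the share with fewer was near that of all genes. For the MEF2 factors, Mef2a had 2, 3 and 3 peaks in knockout and 5, 5 and 8 in wild type, and Mef2b, Mef2c and Mef2d overlapped. For the NCoR corepressor complex, Tbl1xr1 had 6, 9 and 8 peaks in knockout and 13, 13 and 18 in wild type, and Ncor1, Tbl1x and Gps2 overlapped. For the 14-3-3 proteins, Ywhah, Ywhab and Ywhaq were lower in every knockout sample (1.67 ± 0.577, 2.33 ± 0.577 and 4.33 ± 0.577 peaks in knockout against 5.33 ± 0.577, 5.33 ± 0.577 and 7 ± 1 in wild type; SD, n = 3 each), and Ywhae was higher, with 3 peaks in each knockout and 2 in each wild-type sample. In the gene span alone the differences were 0 at Ywhah and -0.667 at Ywhaq, the value at Ywhaq with equal numbers of peaks was also -0.667, and with the widest 50% of peaks the differences were -0.333 at Ywhab and 0 at Ywhae.

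Of 14 kinase genes, Camk2d and Camk4 had more peaks in every knockout sample and Camk1d, Prkd3, Sik2 and Sik3 had fewer. Camk2d, which encodes a calcium- and calmodulin-dependent kinase, had 26, 27 and 23 peaks in knockout and 20, 20 and 18 in wild type, and 8 of its 34 regions were gained and 1 was lost. The salt-inducible kinase gene Sik3 had 9, 10 and 6 peaks in knockout and 14, 13 and 13 in wild type. Camk1d had 6, 6 and 7 in knockout against 9, 11 and 12 in wild type. Prkd3, for protein kinase D3, had 7, 7 and 6 in knockout against 12, 10 and 9 in wild type, but differed by 0.333 in the opposite direction with the widest 50% or equal numbers of peaks. Over the whole list knockout samples had 180 to 201 peaks and wild-type samples 217 to 236, means of 191 ± 10.5 and 226 ± 9.61 (SD, n = 3 each). The two-sided exact permutation p was 0.1, the smallest possible, and 0.2 when adjusted over 2 lists. The difference of -34.7 peaks turned to 10 with equal numbers of peaks in every sample, so its direction depended on the scaling. Over all genes with a region the median difference was -0.667 peaks.

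Markers of blood lineages differed alongside the class IIa genes. Among all genes with a region, 4.24% had more peaks in every knockout sample and 27.6% had fewer. Some marker genes share peaks, such as Rag1 and Rag2 or Hbb-bs and Hbb-bt, but were counted as separate genes. Of 13 B lymphoid genes 6 had more peaks in every knockout sample and 0 had fewer, with summed peaks of 76 to 91 in knockout and 49 to 52 in wild type. For Pax5, which encodes a B lineage factor, these were 8, 9 and 10 in knockout and 3, 3 and 1 in wild type. Of 11 erythroid genes 10 had fewer peaks in every knockout sample, with sums of 22 in each knockout sample and 57 to 63 in wild type, and the band 3 gene Slc4a1 had no peak in any knockout sample. Megakaryocyte genes had sums of 17 to 21 in knockout and 35 to 37 in wild type, with 4 of 6 lower (this list and the progenitor list share 1 gene). Sums for 8 T and NK genes were 37 to 38 in knockout and 35 to 39 in wild type, and for 8 granulocyte and monocyte genes 40 to 46 and 46 to 52, where Ly6g had no peak in any sample. These sums hide opposite members. Of the T and NK genes 1 was higher and 1 lower in every knockout sample. Of the granulocyte and monocyte genes 1 was higher and 2 were lower. Progenitor genes had sums of 70 to 84 in knockout and 95 to 99 in wild type, with 6 of 10 lower. As a share of each sample's peaks, the progenitor values overlapped (0.163 ± 0.00691% in knockout and 0.168 ± 0.00323% in wild type; SD, n = 3 each), and T and NK genes were higher in every knockout sample (0.0809 ± 0.00456% in knockout and 0.0648 ± 0.00335% in wild type). B lymphoid genes stayed higher and erythroid and megakaryocyte genes lower on that scale. The part of a changed cell mixture in the values at Hdac9 and Hdac7 was not tested.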

How the data were processed

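The data were 6 peak lists of ATAC-seq, deposited by the authors as chromosome, start and end in bp with no score, height or read count; such coordinates are the only unit used. Per the submitters' processing notes the peak caller was MACS2, with no version, and the build mm10; the file labels carry a p threshold of 1e-11. For the aligner, filters, insertion-site shift and duplicates, the entry is: not given in the sources used here. Peaks were called per sample. Depth is unknown, so no interval that needs it is given.

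Consensus regions, calls and counts were computed with Python 3.11.15, numpy 2.4.6 and pandas 2.3.3. Spans and starts of genes were those of RefSeq on GRCm38.p6, which held all 4 genes, 8 of their starts, and no exons. Peak numbers and widths in bp were given as mean ± SD. Exact permutation tests over samples, two-sided, were run for 2 lists of other genes. Members and lists were chosen with earlier results of these data known. Named genes were the members, the 3 genes nearest to each, and up to 4 per role of each list with non-overlapping groups; Pax5, Slc4a1, the shared neighbours and the list genes named as overlapping were chosen after their values were seen. Values of some single list genes are not reported here. Alternatives changed the peaks used, the distance, the definition of a region, the samples and the measure.

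Same-numbered samples were not treated as paired, since the labels do not say whether they are. Their deviations from the group means over all regions correlated at -0.0221, 0.00554 and 0.019. Differently numbered knockout and wild-type samples gave -0.0463 to 0.0427, and such values cannot decide whether samples were paired. Between 4 and 24 peaks were identical in any pair of lists.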

Additional observations from a re-analysis of the deposited data

How the results depend on the processing

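Leaving out each sample gave 11 to 12 gained and 10 to 12 lost regions at the 4 genes, and 9 to 10 gained at Hdac9. A call over the remaining samples asks for less than the main call, so these counts could hardly fall by construction. Differences in peak number (knockout minus wild type) were then 5.83 to 7.33 at Hdac9, -7.5 to -6.5 at Hdac7, -2.33 to -0.833 at Hdac5 and 0.167 to 0.667 at Hdac4. The list differences were -3.33 to -1.83 (other deacetylases) and -39.7 to -29.2 (partners). Keeping the widest 50% of peaks removes peaks by construction, and then 5 gained and 4 lost regions were called, 4 gained at Hdac9, and the differences were 4.67 at Hdac9, -0.333 at Hdac7, -2.67 at Hdac5 and -1.67 at Hdac4. With the widest 44576 peaks of every sample, 13 regions were gained and 4 lost (4740 and 4677 over all regions). The differences were then 11.3, -4, 0 and 2.33 in the same order, and 3 and 10 for the lists, both reversed. As shares of each sample's peaks the differences were 0.0186, -0.0081, 0.000831 and 0.00454 percentage points, and 0.0235 and 0.0179 for the lists, both reversed. The Hdac7 difference was -5 in the gene span alone and -11.3 within 50 kb. At single genes, Prkd3 turned to 0.333 with the widest 50% and with equal numbers of peaks, and Hdac11 to -1.33 in the gene span alone. The cause of these changes was not tested. The peaks at the internal Hdac9 start and the first Hdac7 start stayed on their side with the widest 50%, with equal numbers and without each sample. Those settings only remove peaks or samples, so they could not have reversed the side. With same-numbered samples taken as a replicate block, the differences were unchanged by construction (-2.67 and -34.7 for the lists, with exact permutation p of 0.5 and 0.25, where 0.25 is the smallest possible), and the SD of the 3 within-number differences was 2.08 at Hdac9 and 2 at Hdac7. Depth and peak height were not used, so weak and absent signal cannot be told apart.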

Other observations

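The genes beside the class IIa genes differed in how much open chromatin they held. On the 3′ side of Hdac9 and Hdac4 the nearest protein-coding genes are the paralogues Twist1 (87.7 kb away) and Twist2 (80.7 kb away), which encode basic helix-loop-helix factors of mesenchyme, and neither had a peak in or within 20 kb in any sample. On the 5′ side, Prps1l1 near Hdac9 had 1, 2 and 2 peaks in knockout and 2 in each wild-type sample, and Ndufa10 near Hdac4 had 3, 2 and 1 in knockout and 2, 3 and 5 in wild type. Vdr, 9.92 kb from Hdac7, had 4, 5 and 3 peaks in knockout and 11 in each wild-type sample, with 5 of 14 regions lost, 4 of which are also counted at Hdac7. Slc48a1, which overlaps the 3′ end of Hdac7, had 7, 6 and 6 peaks in knockout and 7, 7 and 6 in wild type.

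At the limit of 20 kb, the first region beyond it on the 5′ side of Hdac4 was 20.5 kb away and was in all 6 samples, and that of Hdac7 was 20.7 kb away and was in 1 wild-type sample; the farthest region within it on that side of Hdac7 was 6.56 kb away and was lost.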
